A study of Xenopus laevis with 8 samples.

Results

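Multiciliated cells of the Xenopus laevis larval skin carry many motile cilia, and 3 genes of their program were examined here in explanted embryonic ectoderm: foxj1, a forkhead transcription factor that switches on motile cilia genes; mcidas (multicilin), a coiled-coil coregulator that starts the multiciliated program; and ccno, a cyclin-like protein needed to amplify centrioles. All probe sets whose single gene symbol in the platform annotation was foxj1, mcidas or ccno were taken, and 5 of 32539 met this rule: foxj1.S, foxj1.L, mcidas.S, ccno.S and ccno.L. This frog is allotetraploid, and .L and .S at the end of a symbol stand for its long and short subgenomes; copies close in sequence may cross-hybridise. The other copy, mcidas.L, was not analysed here. The rule used names alone, but the genes were proposed with earlier results of these data known.

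In the skin of the tailbud embryo, multiciliated cells arise in the inner ectodermal layer, where Notch signalling limits their number, and then move into the outer layer among mucus-secreting cells. Multicilin, with geminin-family, E2F and DP proteins, turns on ccno, foxj1 and the genes of centriole assembly, and Foxj1 with Rfx factors turns on the genes of the axoneme and of intraflagellar transport. The ectoderm forms such skin where bone morphogenetic protein (BMP) signalling is active, and neural tissue where it is blocked.

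The arrays held RNA of animal caps, the roof of the blastula cut at stage 9 and cultured alone until stage 15, in 4 groups of 2 arrays. The first group came from embryos injected at the 2-cell stage with chordin mRNA, wnt3a mRNA and a morpholino (MO) against lrig3; the second received chordin and wnt3a mRNA; the third received chordin mRNA alone; and the fourth was uninjected. Chordin is a secreted BMP antagonist, Wnt3a is a secreted Wnt ligand, and Lrig3, whose message the morpholino targets, is a leucine-rich repeat protein of the cell membrane. All 3 injected groups carried chordin, none received wnt3a or the morpholino without it, and the labels give no dose, strain, number of caps in a sample or control morpholino.

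Signals are linear MAS5 intensities, on which 1 probe set can be compared between arrays but not with another probe set. The background of an array was taken as its highest negative control signal and lay between 19.5 and 30.8, and 68.6% to 76.0% of probe sets exceeded it. Across probe sets, replicate arrays correlated at r = 0.929 to 0.967. A change is a difference of log2(signal + 5.22) fitted by limma over all 8 arrays. It was called at a Benjamini-Hochberg adjusted p under 0.05 over the 22000 probe sets kept, with 95% confidence intervals and standard errors (SE) from that fit. The added constant makes it understate changes of dim genes. The genes of the injected messages had their higher signals where the labels place them, but the arrays do not tell injected from endogenous message. Wnt3a.S had signals of 27548 and 25480 with the morpholino and 10956 and 18771 with chordin and wnt3a. It had 2.24 and 0.498 with chordin alone and 28.2 and 14.1 in uninjected caps. Chrd.1.S had signals of 156 and 159 with the morpholino, 100 and 291 with chordin and wnt3a and 468 and 771 with chordin, against 1.66 and 1.34 in uninjected caps. The lrig3.S message had signals of 4787 and 3002 with the morpholino, and 741 and 756 with chordin and wnt3a (log2 change 2.33, adjusted p = 0.0246). It had 3191 and 2158 with chordin alone and 95.6 and 172 in uninjected caps. That call was lost in a fit of only the 2 groups compared, and without morpholino replicate 1 or either array with chordin and wnt3a. A message level does not show whether a morpholino blocked translation.

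**Figure D1:**
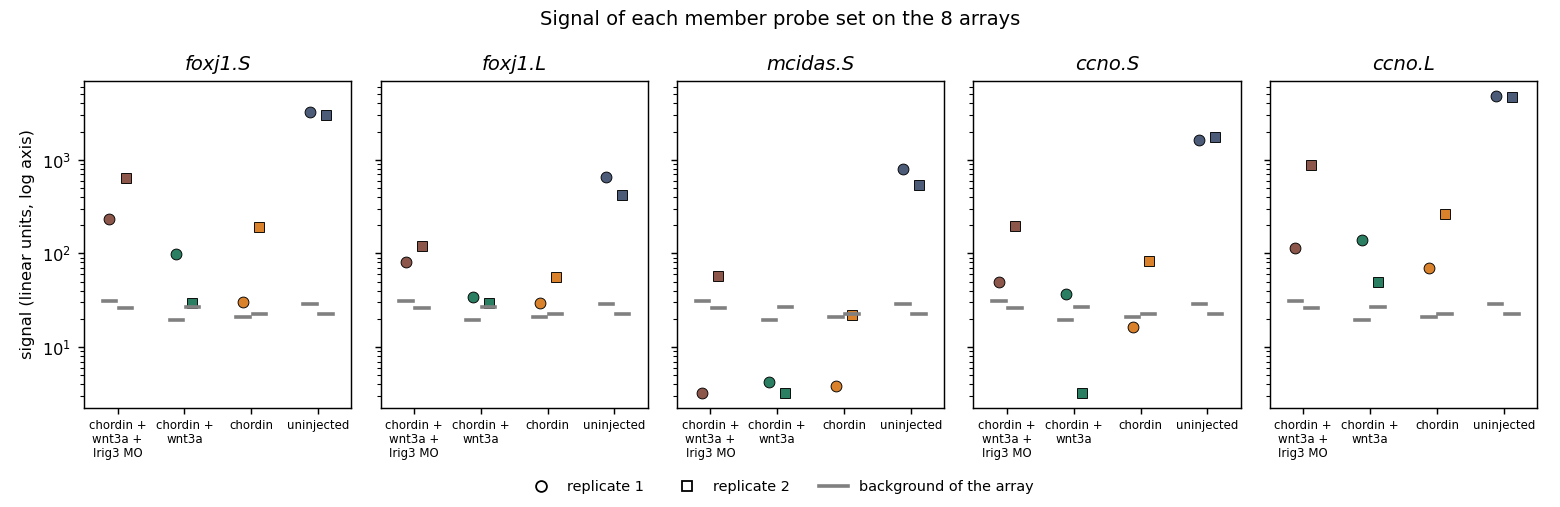
Signal of the 5 probe sets (panels) on each of the 8 arrays, on a log axis shared by the panels, with groups in columns, replicate 1 as circles, replicate 2 as squares and a grey bar at the background of each array. In every panel both uninjected arrays lie above all 6 arrays of injected caps. The share of all kept probe sets with that order was not counted, and mcidas.S was kept through the uninjected arrays alone.

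Foxj1, mcidas and ccno were high in uninjected caps and low in all 3 groups that received chordin. Foxj1.S, the brighter foxj1 probe set, had signals of 235 and 647 with chordin, wnt3a and the morpholino, 98.7 and 29.2 with chordin and wnt3a, and 30.5 and 193 with chordin, against 3246 and 3012 in uninjected caps. Foxj1.L had signals of 81.7 and 119 with the morpholino, 34.2 and 29.6 with chordin and wnt3a, and 29.6 and 56.1 with chordin, against 655 and 416 in uninjected caps. For both copies the uninjected arrays stood above all others, the morpholino arrays came next without overlap, and the chordin arrays with and without wnt3a overlapped. How many of all kept probe sets take the same order was not counted.

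Mcidas.S had signals of 3.25 and 57.5 with the morpholino, 4.21 and 3.25 with chordin and wnt3a, and 3.80 and 21.9 with chordin, against 794 and 536 in uninjected caps. It was at background on every array with chordin or with chordin and wnt3a and on replicate 1 with the morpholino, so its order among those arrays is not defined. It passed the filter on low values through the uninjected arrays alone, while each of the other 4 probe sets exceeded the filter level on at least 2 arrays of injected caps as well.

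Ccno.L had signals of 115 and 871 with the morpholino, 140 and 49.2 with chordin and wnt3a, and 70.1 and 263 with chordin, against 4819 and 4741 in uninjected caps. Ccno.S had signals of 49.9 and 198 with the morpholino, 37.0 and 3.24 with chordin and wnt3a, and 16.5 and 83.4 with chordin, against 1632 and 1758 in uninjected caps. The ccno.L values of the 3 injected groups overlapped each other. Ccno.S was above background on 1 of 2 arrays with chordin and on 1 of 2 with chordin and wnt3a.

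With chordin alone, set against uninjected caps, both foxj1 and both ccno probe sets fell, where 11.7% of the 22000 kept probe sets were called lower. Foxj1.S was 37.3-fold lower, with a log2 change of -5.22 (SE 0.91, limma adjusted p = 0.00839), and foxj1.L was 11.4-fold lower, at -3.51 (SE 0.39, adjusted p = 0.00177). Ccno.L was 33.7-fold lower, at -5.07 (SE 1.02, adjusted p = 0.0132). Ccno.S, above background on 1 of 2 arrays with chordin, was 35.4-fold lower when no value was taken below its array's background. The limma fit, which has no such floor, gave it a log2 change of -5.275 (adjusted p = 0.0113). Mcidas.S, at background with chordin and kept through the uninjected arrays alone, was at least 24.5-fold lower by the same floor, and its adjusted p in the fit with no filter was 0.00824. The median of all probe sets was 0.02. In none of the 5 did an array with chordin reach an uninjected one, but the share of all kept probe sets that separate likewise was not counted. In bulk caps, fewer multiciliated cells and less message in each cell cannot be told apart.

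These calls depend on few arrays. Every alternative setting kept the direction, but leaving out an array could not turn it, since the groups do not overlap. The fits with no filter, the replicate block, no trend or only the groups compared leave the group difference itself unchanged. Foxj1.L passed in all 16 alternatives. Foxj1.S no longer passed without uninjected replicate 1. Mcidas.S no longer passed without chordin replicate 1 or uninjected replicate 1, in fits over the kept probe sets. It was kept through the uninjected arrays alone, so these fits are no further support for its fall. Without chordin replicate 1, uninjected replicate 1 or uninjected replicate 2, ccno.S had an adjusted p of 0.0715, 0.0607 and 0.0608 (range 0.00349 to 0.0715) and ccno.L one of 0.0865, 0.0689 and 0.0657 (range 0.00469 to 0.0865).

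With chordin and wnt3a, set against uninjected caps, both foxj1 and both ccno probe sets again fell, where 14.7% of kept probe sets were called lower. Both comparisons share the uninjected arrays. Foxj1.S was 52.4-fold lower (log2 change -5.71, adjusted p = 0.00582), foxj1.L 14.3-fold (-3.83, adjusted p = 0.00141) and ccno.L 53.7-fold (-5.75, adjusted p = 0.00803). Ccno.S, above background on 1 of 2 arrays with chordin and wnt3a, was 46.0-fold lower with values held at the array background. The limma fit without that floor gave it a log2 change of -6.49 (adjusted p = 0.00543). Mcidas.S, at background, was at least 23.3-fold lower by that floor. Its adjusted p of 0.00468 is from the fit with no filter and no floor. The exception among alternatives was ccno.L without replicate 2 of chordin and wnt3a (adjusted p = 0.0515, range 0.00291 to 0.0515).

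Adding wnt3a to chordin gave no called change in any of the 5, where 5.82% of kept probe sets were called in either direction. Signals with chordin and wnt3a overlapped those with chordin in every case. The log2 changes were -0.49 for foxj1.S (95% interval -2.66 to 1.68) and -0.32 for foxj1.L (-1.24 to 0.60). Mcidas.S was at background in both groups and is given no change. For ccno.L the interval ran from -3.10 to 1.75 and for ccno.S from -3.61 to 1.18, so a change of several fold in either direction could not be told from none.

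With the morpholino added to chordin and wnt3a, no probe set of the 5 was called, where 4.90% of kept probe sets were called in either direction. Foxj1.S had a log2 change of 2.73 (95% interval 0.56 to 4.89, adjusted p = 0.133) and foxj1.L one of 1.49 (0.57 to 2.41, adjusted p = 0.0749), and in both the morpholino arrays lay above the arrays with chordin and wnt3a. With the replicate number as a block foxj1.L passed (adjusted p = 0.0491, range over alternatives 0.0491 to 0.301). Ccno.S, also without overlap, had a log2 change of 2.48 (adjusted p = 0.197) and ccno.L one of 1.86 (adjusted p = 0.318). The share of all kept probe sets that separate likewise in this comparison was not counted. For ccno.S, replicate 2 with chordin and wnt3a was below background. With values held at the array background its log2 difference was 1.52. Mcidas.S, above background on morpholino replicate 2 alone, is given no change.

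With chordin, wnt3a and the morpholino, set against uninjected caps, both foxj1 and both ccno probe sets were lower, where 15.3% of kept probe sets were called lower. Foxj1.S was 7.91-fold lower (log2 change -2.98, adjusted p = 0.0423), foxj1.L 5.08-fold (-2.34, adjusted p = 0.00629), ccno.S 16.1-fold (-4.01, adjusted p = 0.0235) and ccno.L 14.8-fold (-3.88, adjusted p = 0.0267). Mcidas.S, above background on 1 of 2 morpholino arrays, was 13.9-fold lower with values held at the array background. Its adjusted p of 0.0110 is from the fit with no filter and no such floor. Foxj1.S passed in 9 of 16 alternatives (adjusted p 0.0206 to 0.191) and not with the replicate block (adjusted p = 0.0723). Without morpholino replicate 1, uninjected replicate 1 or uninjected replicate 2 its adjusted p was 0.191, 0.144 and 0.136, that of ccno.S 0.116, 0.0925 and 0.0987 (range 0.00640 to 0.116) and that of ccno.L 0.102, 0.104 and 0.104 (range 0.00807 to 0.104). Mcidas.S, kept through the uninjected arrays alone, did not pass without uninjected replicate 1, and foxj1.L passed in all 16.

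**Figure D2:**
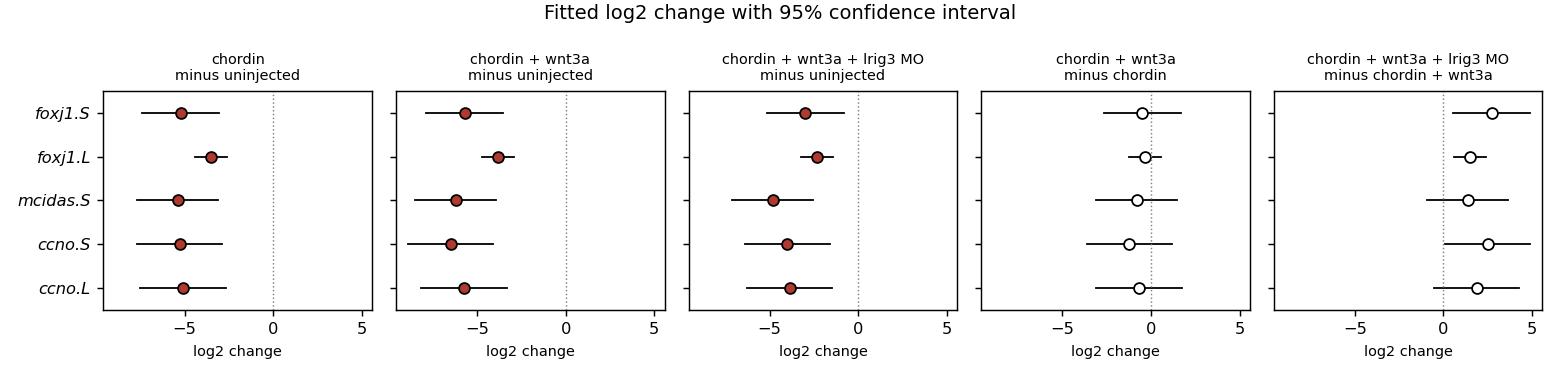
Fitted log2 change of the 5 probe sets (rows) in the 5 comparisons (panels), with 95% confidence intervals as lines; filled points were called and open points were not. All 15 points against uninjected caps lie below 0 and are filled, and the 10 points of the other comparisons are open. Those of mcidas.S come from arrays at background, other than the uninjected pair and morpholino replicate 2. Its filled points are calls among the kept probe sets, where it stands through the uninjected arrays alone.

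Within the injected groups the probe sets above background differed between arrays in the same direction. All 5 were higher on replicate 2 than on replicate 1 with the morpholino, by a ratio of 1.46 for foxj1.L, 2.75 for foxj1.S, 3.96 for ccno.S and 7.59 for ccno.L. With chordin the 4 other than mcidas.S were also higher on replicate 2, by a ratio of 1.90 for foxj1.L, 3.75 for ccno.L and 6.34 for foxj1.S. With chordin and wnt3a the same 4 were lower on replicate 2. Mcidas.S was at background on all of these arrays. Between pairs of the 5, Pearson's r over the 8 arrays was 0.933 to 0.987. This describes arrays in 4 groups, with the uninjected pair far from the rest. Summed over the 5, the signal was 4.49% and 17.5% of the uninjected mean with the morpholino, 2.91% and 1.06% with chordin and wnt3a, and 1.39% and 5.71% with chordin.

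Genes of ionocytes, another cell type intercalating from the inner layer of this skin, differed between the same arrays in the same direction. The summed signal of 12 ionocyte genes was 1.44% and 35.0% of the uninjected mean with the morpholino, 5.72% and 1.67% with chordin and wnt3a, and 1.70% and 11.8% with chordin. Of these 12 genes, 2 and 11 were above background on the 2 morpholino arrays, 11 and 2 with chordin and wnt3a, 8 and 11 with chordin, and 11 on each uninjected array. The ionocyte regulator foxi1.L was at background on morpholino replicate 1, with a signal of 3.98, and reached 1507 on replicate 2, against 6511 and 5845 in uninjected caps. Foxi1.L was singled out after its values were seen. Axial mesoderm also uses foxj1, for the cilia of the gastrocoel roof, and 22 gene copies listed for it, 12 of them kept, were summed. They gave 9882 on morpholino replicate 1 and 1811 on replicate 2, against 569 and 350 in uninjected caps. With chordin and wnt3a the sums were 2396 and 2343, and with chordin 1074 and 1214. Sums are led by the brightest copies. The median copy was at 1512% and 124.6% of its uninjected mean with the morpholino. It was at 185.2% and 119.5% with chordin and wnt3a, and at 157.1% and 84.5% with chordin. Of the 22 copies, 5 and 6 were above background on the uninjected arrays. The part of these axial genes in the foxj1 values was not tested. The 18 housekeeping gene copies summed to 90.0% to 103% of the uninjected mean on every array.

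**Figure D3:**
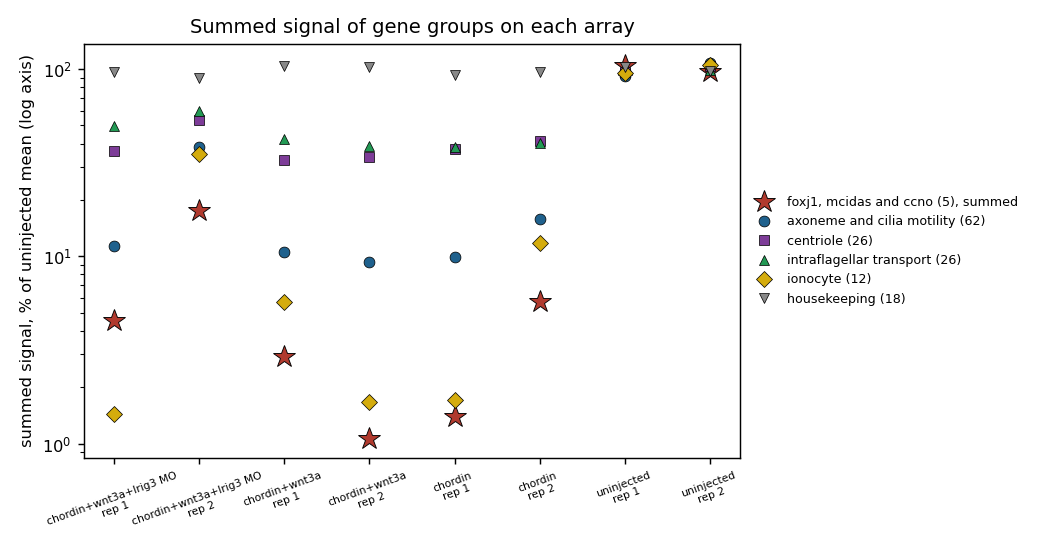
Summed signal of foxj1, mcidas and ccno (stars) and of 5 gene lists on each of the 8 arrays, as a percentage of the mean of the uninjected arrays, on a log axis; numbers in the legend are gene copies. The stars and the ionocyte diamonds differ most between replicates, with 4.49% and 17.5%, and 1.44% and 35.0%, on the morpholino arrays.

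The other listed regulators that were measured moved in both directions with chordin. The listed genes gmnc, tp73, rfx3, rfx4 and e2f5 had no probe set with their single symbol, so nothing is known of them here. Of 10 gene copies measured, 9 of them kept, 2 fell and 4 rose with chordin, where 11.7% of kept probe sets were called lower and 17.6% higher. Foxj1.2.L, a relative of foxj1, had signals of 26.5 and 144 with the morpholino, 22.0 and 8.73 with chordin and wnt3a, and 11.8 and 38.8 with chordin, against 676 and 630 in uninjected caps. Among injected caps foxj1.2.L exceeded the filter level on morpholino replicate 2 alone, so it was kept through the uninjected arrays. At background on chordin replicate 1, it fell with chordin, with a log2 change of -4.59 (adjusted p = 0.00812). It also passed with no filter, but not without chordin replicate 1 or uninjected replicate 1. Rfx2.S, a partner of Foxj1 at cilia genes, had signals of 145 and 117 with chordin, against 446 and 341 in uninjected caps, a log2 change of -1.54 (adjusted p = 0.00878). It no longer passed without uninjected replicate 1 or under spike-in scaling, an alternative described with the processing. With the morpholino rfx2.S had signals of 431 and 297, which overlapped the uninjected ones (log2 change -0.12, adjusted p = 0.757). Against chordin and wnt3a its log2 change was 1.15 (adjusted p = 0.0644).

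Foxn4.S, a forkhead factor that in Xenopus works beside Foxj1 in multiciliated cells and that also acts in neural progenitors, was an exception among these regulators. Its signals were 70.5 and 194 with the morpholino, 38.3 and 28.3 with chordin and wnt3a, and 1343 and 1678 with chordin, against 984 and 1126 in uninjected caps. It was not called with chordin alone (log2 change 0.51, adjusted p = 0.414). Adding wnt3a to chordin lowered it 39.5-fold (log2 change -5.30, adjusted p = 0.00125), a call that held in all 16 alternatives.

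The geminin copies gmnn.S and gmnn.L, which restrain replication licensing and act in neural induction, rose with chordin by 1.06 and 1.50 on the log2 scale (adjusted p = 0.00637 and 0.00343). So did the E2F partner tfdp2.S, by 1.42 (adjusted p = 0.00402), and e2f4.S, an E2F factor that Multicilin engages, by 1.32 (adjusted p = 0.00353). Each of these calls held in all 16 alternatives. E2f4.S had signals of 720 and 634 with the morpholino, 608 and 741 with chordin and wnt3a, and 806 and 794 with chordin, against 331 and 304 in uninjected caps. Tfdp1.L had a log2 change of 0.05 and tfdp1.S one of 0.66, not called (adjusted p = 0.132; 0.0276 with the replicate block). Myb.S was at background on all 8 arrays and was not tested.

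**Figure D4:**
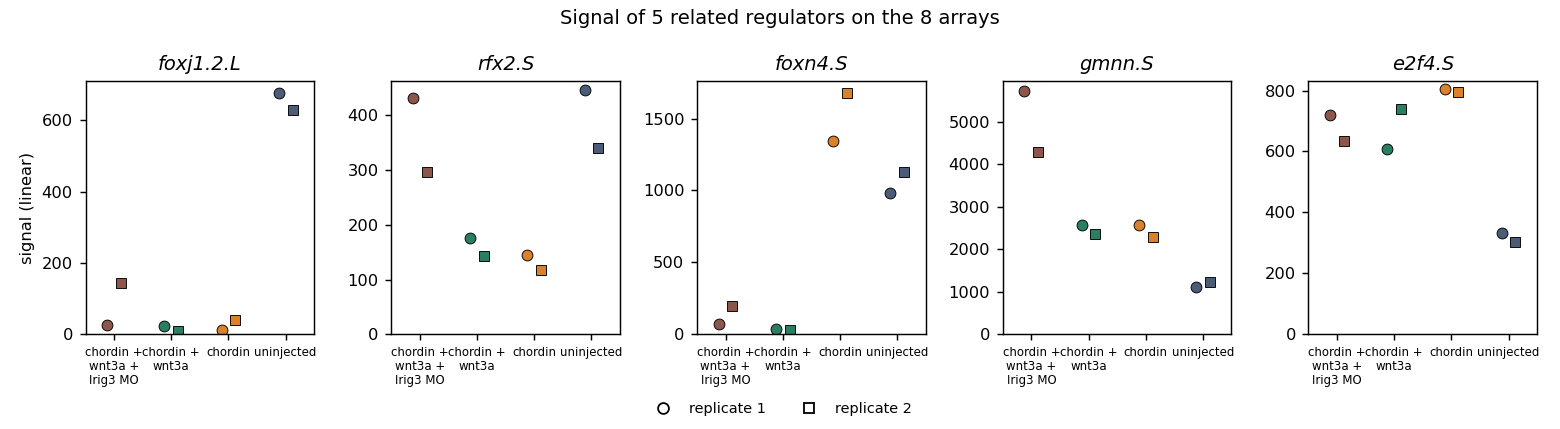
Signal of 5 other regulators on each of the 8 arrays, each panel with its own linear axis from 0, groups in columns, replicate 1 as circles and replicate 2 as squares. Foxn4.S is high with chordin alone and in uninjected caps, whereas gmnn.S and e2f4.S are lowest in uninjected caps.

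Most genes of the lists for building the cilium were lower with chordin. Of 124 gene copies in the lists of regulators, centriole, axoneme and transport genes, other than the 5 above, 117 were kept, and 85 fell and 6 rose with chordin, where 11.7% and 17.6% of kept probe sets did, with a median log2 change of -2.05, against 0.02 over all probe sets. Set against uninjected caps, 90 fell and 6 rose with chordin and wnt3a (median -2.04), where 14.7% and 19.0% of kept probe sets did. With the morpholino 71 fell and 6 rose (median -1.63), where 15.3% and 20.9% did. Leaving out a chordin or uninjected array lowered the count that fell with chordin, and also the count called lower among all kept probe sets. So did leaving out an uninjected array in the other 2 comparisons. Under spike-in scaling 42 fell with chordin, where 721 of the 22000 kept probe sets were called lower, against 2579 in the main fit. With chordin and wnt3a 54 fell under that scaling, where 1170 of all kept probe sets did, against 3242.

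The axoneme list, with the dyneins, tektins and radial spoke proteins of the motile shaft, had the lowest median of the 4. Of 62 gene copies 46 fell with chordin, none rose, and the median was -3.14. Tekt1.L, a tektin of the microtubule doublets, had signals of 72.5 and 520 with the morpholino, 69.9 and 67.1 with chordin and wnt3a, and 32.7 and 127 with chordin, against 1839 on both uninjected arrays. It fell with chordin, with a log2 change of -4.71 (adjusted p = 0.0120). Tekt4.S fell too, at -4.45, as did the doublet proteins cfap161.L and cfap52.S, at -4.49 and -4.33, and cfap126.L, which helps place basal bodies and was at background on chordin replicate 1, at -4.41. None of these 5 passed without chordin replicate 1 or without uninjected replicate 1. Under spike-in scaling 29 of the list were called lower, where 721 of the 22000 kept probe sets were. Fewer of the list fell without chordin replicate 1 or either uninjected array, as did fewer of all kept probe sets. On single arrays the summed axoneme signal was 11.3% and 38.5% of the uninjected mean with the morpholino, 10.5% and 9.36% with chordin and wnt3a, and 9.90% and 15.8% with chordin.

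Among the centriole genes, 18 of 26 fell and 1 rose with chordin, with a median of -1.19. Poc5.L, a protein of the centriole wall, had signals of 72.5 and 226 with the morpholino, 50.2 and 18.7 with chordin and wnt3a, and 24.8 and 83.0 with chordin, against 942 and 924 in uninjected caps (log2 change with chordin -4.19, adjusted p = 0.00780). Also lower were the centrin cetn4.L at -4.01, cep41.S at -3.82, the centrosomal gene kiz.S at -2.68 and ccdc78.S, a component of the deuterosomes on which multiciliated cells make centrioles, at -4.00. Of these, poc5.L and kiz.S passed in all 16 alternatives. Ccdc78.S did too, but it was kept through the uninjected arrays, so fits over the kept probe sets are no further support for its fall. Cetn4.L and cep41.S did not pass without chordin replicate 1 or either uninjected array. Without any 1 of these arrays fewer centriole genes fell, as did fewer of all kept probe sets. Under spike-in scaling 8 centriole genes fell, where 721 of the 22000 kept probe sets were called lower. Cep63.L, which acts in centriole duplication in dividing cells, rose by 2.05 (adjusted p = 0.00662).

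Intraflagellar transport and Bardet-Biedl genes serve primary as well as motile cilia. Of 26 gene copies 19 fell and 1 rose with chordin, with a median of -1.41. Under spike-in scaling 4 fell, where 721 of the 22000 kept probe sets were called lower. Ift57.S, ift52.L and ift80.L, all of the transport complex that carries cargo to the tip, fell, at -2.28, -2.26 and -2.12, and passed in all 16 alternatives. Ift74.L, at -2.95, did not pass under spike-in scaling or with any chordin or uninjected array left out, and arl3.S, a small GTPase that releases ciliary cargo, at -1.80, did not under spike-in scaling. Without chordin replicate 1 or either uninjected array fewer transport genes fell, as did fewer of all kept probe sets. Bbs10.L, a chaperonin-like protein, rose by 1.87 (adjusted p = 0.00526). The summed transport signal stayed at 38.2% to 59.9% of the uninjected mean in injected caps.

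Adding wnt3a to chordin changed 1 of the 124 gene copies, foxn4.S above, where 5.82% of kept probe sets were called in either direction. Adding the morpholino to chordin and wnt3a raised 4 and lowered none, where 2.73% of kept probe sets were called higher, a share near that of these genes. Their median was 0.73, against 0.07 over all probe sets. Those raised were morn2.L (log2 change 1.65, adjusted p = 0.0412), the transport gene ttc30a.S (1.22, adjusted p = 0.0464), gmnn.S (1.01, adjusted p = 0.0307) and the centriole duplication kinase plk4.L (0.91, adjusted p = 0.0418, turning to -0.05 under spike-in scaling). With the replicate block 16 rose and 1 fell, where 1675 and 1614 of the 22000 kept probe sets did. Under spike-in scaling none rose and 5 fell, where 160 and 6171 of all kept probe sets did. With any 1 of the 8 arrays left out fewer of these genes rose, as did fewer of all kept probe sets.

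**Figure D5:**
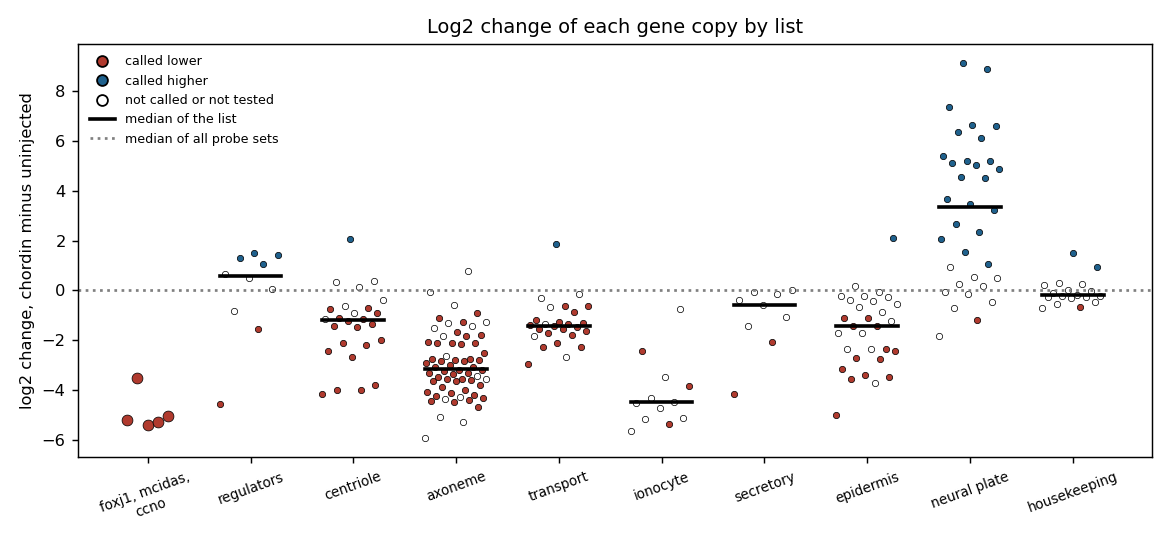
Log2 change with chordin, set against uninjected caps, of foxj1, mcidas and ccno and of each gene copy in 9 lists; red points were called lower, blue points called higher and open points not called or not tested, with the list median as a bar and the median of all probe sets as a dotted line. The axoneme list is centred on -3.14 and the neural plate list on 3.36.

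Lists of other cell types of the skin were read against the same shares, 11.7% lower and 17.6% higher with chordin. Of 12 ionocyte genes 3 fell and none rose, with a median of -4.51 and wide replicate differences: the carbonic anhydrase ca12.L was at -5.38 (adjusted p = 0.0466), the nuclear receptor esrra.L at -3.85 and the anion exchanger slc4a1.L at -2.45. Of these, ca12.L passed in 4 of 16 alternatives, esrra.L in 11 and slc4a1.L in 14. The ionocyte count was 1 under spike-in scaling, where 721 of the 22000 kept probe sets were called lower. It was smaller without chordin replicate 1 or either uninjected array, as was the count over all kept probe sets. Without either morpholino array both counts were larger. Of 30 epidermal genes 13 fell and 1 rose, with a median of -1.44, led by cldn1.S, a claudin at background on chordin replicate 1, at -5.01, and including the basal factor tp63.S and the BMP-responsive factors gata2.L (-3.15) and tfap2a.L (-2.76). Gata2.L did not pass under spike-in scaling or with any chordin or uninjected array left out, and cldn1.S under spike-in scaling or without either uninjected array. The epidermal count was 6 under spike-in scaling, against the same 721. It was smaller with any chordin or uninjected array left out, as was the count over all kept probe sets. Of 9 secretory cell genes 6 were kept and 2 fell, both copies of foxa1, a regulator of small secretory cells, with foxa1.L, at background on chordin replicate 1, at -4.16 and foxa1.S at -2.08. None of the 9 fell with any chordin or uninjected array left out. Of 34 neural plate genes 23 rose and 1 fell, with a median of 3.36, among them the eye-field genes rax.L, at background in uninjected caps and at least 143-fold higher with chordin, and pax6.L, with a log2 change of 7.38. Tfap2a.L was singled out for 1 more comparison, outside the rule for named genes. Adding wnt3a to chordin raised it by 3.77 on the log2 scale (limma adjusted p = 0.00106). Its signals were 7618 and 7557 with chordin and wnt3a, against 388 and 777 with chordin. In bulk caps this rise cannot be assigned to epidermis or to another cell type. Of the 30 epidermal genes 5 rose and 1 fell in that comparison, where 3.08% and 2.74% of kept probe sets did. Their median log2 change was -0.01.

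The genes most like the brightest probe sets of foxj1, mcidas and ccno were ranked by the mean of 3 Pearson correlations over the 8 arrays, among 8818 symbols. The first 8 were foxj1.2.L (mean r = 0.986), poc5.L (0.983), tmed4.S, ccdc78.S and wrap73.L (0.982 each), and efcab1.S, enkur.L and cfap161.L (0.981 each). Of these, 6 are in the 4 lists above, as are 21 of the first 50, and 1 of the first 50 is an ionocyte gene, ca12.L. It ranks there through a dimmer probe set than the one given above. That probe set had a log2 change with chordin of -4.44 (limma adjusted p = 0.0128) and was not refitted under the alternatives. Tmed4.S, a gene of vesicle traffic outside the lists, had a log2 change with chordin of -1.49 (adjusted p = 0.0138), with signals of 268 and 444 with chordin, against 949 and 1011 in uninjected caps. A brighter probe set of tmed4.S had -1.30 and passed in 9 of 16 alternatives. Wrap73.L, a centrosomal WD-repeat gene outside the lists, had -3.59 (adjusted p = 0.0115) and did not pass without chordin replicate 1 or either uninjected array. With 8 arrays in 4 groups, high correlations arise among all genes that are bright in uninjected caps alone.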

How the data were processed

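Each array has a deposited signal intensity, on a linear scale, for every probe set. The submitters' processing notes name MAS5, with its version not given in the sources used here. Arrays had been scaled, since each has a 2% trimmed mean that rounds to 500. Per the labels' protocols, biotin was built into RNA amplified from total RNA. The series text gives stage 9 and also stage 15 for collection, and stage 15 was used.

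After 96 control probe sets were removed, signals became log2(signal + 5.22), the constant being the 10th percentile. Probe sets above the 40th percentile of their array on at least 2 arrays were kept, 22000 of 32539. Some list genes, such as foxj1.2.L, ccdc78.S, cfap126.L and neurl1.L, reached 2 arrays only with the uninjected pair. Others, such as rax.L and frzb.L, were above background on the chordin arrays alone and were kept through them. The list counts include such genes. The named ones also passed with chordin when no filter was used. Limma 3.58.1 in R 4.3.3 fitted 4 group means to 8 arrays (lmFit, eBayes with trend and robust, 4 residual degrees of freedom), and was tested on simulated data. Both arrays per group may be technical repeats, so p-values measure only their spread. Exact permutation of 2 arrays against 2 cannot go below p = 0.333 and was not used. Background is the highest of 23 negative control signals, chosen after values were seen. Spike-in scaling sets the median of 36 poly-A control probe sets equal on all arrays.

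The difference between a group's replicates correlated from 1 group to another at 0.172 to 0.505, over 6 pairs, so replicate numbers were taken to pair arrays, although the labels do not say what they mark; the main fit has no block.

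Names came from the platform annotation, updated through a RefSeq table of Xenopus_laevis_v10.1; 15495 probe sets had 1 symbol, 279 several and 16765 none. The brightest probe set stands for each list symbol. Members, 11 gene lists and tests were chosen with earlier results of these data known. Genes named are the members, the injected and targeted genes, all listed regulators, up to 5 called genes of largest change per list with a signal of at least 200 in the brighter group, called genes against their list's majority, genes called in the last 2 comparisons, and the 8 most alike genes.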

Additional observations from a re-analysis of the deposited data

How the results depend on the processing

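Each of the 5 probe sets was refitted under 16 alternatives: a pseudocount of 1 or 32, no filter, quantile normalization, spike-in scaling, the replicate block, no variance trend, only the groups compared, and each array left out. Against uninjected caps all 5 stayed negative throughout, which leaving out an array could not change, as both uninjected arrays lay above all others. Spike-in scaling moved the median of all kept probe sets to 0.78 with chordin, 0.75 with chordin and wnt3a and -0.90 for adding the morpholino, against 0.09, 0.11 and 0.03. Calls higher and lower with chordin were 6841 and 721 under it, against 3866 and 2579.

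With the morpholino, set against uninjected caps, foxj1.S did not pass at -2.98 with no filter (adjusted p = 0.0621), with the replicate block (0.0723) or without the trend (0.0520), nor at -3.28 under spike-in scaling (0.0692). Ccno.L did not pass at -4.17 under spike-in scaling (0.0631) or at -3.88 with only the 2 groups (0.0596). For adding the morpholino, foxj1.L passed at 1.49 with the replicate block. The cause of these losses was not tested.

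With an array left out, log2 changes with chordin were -6.46 to -3.98 for foxj1.S, -6.19 to -4.60 for mcidas.S, -6.29 to -4.26 for ccno.S and -5.99 to -4.16 for ccno.L, and ccno.L with chordin and wnt3a had -6.46 to -5.04. With the morpholino they were -3.71 to -2.26 for foxj1.S, -6.28 to -3.39 for mcidas.S, -4.95 to -3.07 for ccno.S and -5.32 to -2.45 for ccno.L. For adding wnt3a, where nothing was called, they were -1.73 to 0.75 for foxj1.S, -0.73 to 0.088 for foxj1.L and -1.59 to 0.24 for ccno.L, and for adding the morpholino -0.078 to 2.81 for mcidas.S, which was at background on 3 of the 4 arrays compared.

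Of the 124 pathway gene copies, 42 fell with chordin and 54 with chordin and wnt3a under spike-in scaling, and 45 with the morpholino in the fit of 2 groups. With an array left out these ranges were 32 to 95, 51 to 97 and 15 to 83. For adding wnt3a, 2 rose with the replicate block, where 1079 of all kept probe sets did. For adding the morpholino, 0 rose and 5 fell under spike-in scaling, where 160 and 6171 of all kept probe sets did. With the replicate block 16 rose and 1 fell, where 1675 and 1614 did. Without the trend 1 rose and in the fit of 2 groups 0 did, where 499 and 25 of all kept probe sets were called higher. With an array left out fewer rose, as over all kept probe sets. Of 1088 refitted values for 68 results on other named genes, 900 kept their side of the threshold, 184 lost a call, 1 gained it and 3 changed sign under spike-in scaling, slc35b1 to 0.038, ubald2.S to 0.052 and plk4.L to -0.045. With the arrays few, their number limits the precision.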

Other observations

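Notch signalling limits the number of multiciliated cells in this skin. The list made for it, which also holds the Myc-family gene mycl, was counted with chordin. Of 42 gene copies 37 were kept, and 14 rose and 4 fell, with a median log2 change of 0.34. Of all kept probe sets 17.6% were called higher and 11.7% lower. With a chordin or uninjected array left out fewer of the list rose and fewer fell, as over all kept probe sets. The repressor genes hes1.S and hes1.L rose by 5.69 and 3.12 on the log2 scale, and mycl.S by 2.63, in all 16 alternatives. So did hes7.1.L, which was at background in uninjected caps and at least 30.3-fold higher with chordin. Hes1.S had signals of 4937 and 5328 with chordin, against 82.3 and 108 in uninjected caps, and hes1.L had 7618 and 8832, against 876 and 1002. The ubiquitin ligase gene neurl1.L had a log2 change of -3.92, with signals of 11.5 and 38.1 with chordin, against 404 on both uninjected arrays, was at background on chordin replicate 1, and did not pass with any chordin or uninjected array left out. Several of these genes also mark neural tissue, and no cell type can be assigned to them in bulk caps.

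Of 22 axial mesoderm gene copies 12 were kept and 2 rose with chordin, where 17.6% of all kept probe sets did, among them the secreted Wnt antagonist frzb.L, with signals of 351 and 502 with chordin, against 13.0 and 3.43 in uninjected caps. Frzb.L was above background on the chordin arrays alone and was kept through them. Of 18 housekeeping gene copies, all kept, 2 rose with chordin, against the same 17.6%, hprt1.L by 1.52 and tbp.S by 0.94, and 1 fell, slc35b1, at -0.68, which turned to 0.04 under spike-in scaling.

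Ccno and mcidas are adjacent in the gene order of the Xenopus_laevis_v10.1 RefSeq table on both subgenomes. Among 18 other genes within 5 places of a member that have a probe set, 13 were kept, and with chordin 4 of them fell and 3 rose, where 11.7% and 17.6% of all kept probe sets did. These neighbours were chosen outside the rule for named genes. Ubald2.L and ubald2.S, near foxj1, were at -1.49 and -0.66, and MGC80748 and plpp1.L, near ccno, at -2.40 and -1.67, while prpsap1.L, prpsap1.S and gpx8.L rose, with prpsap1.S at 0.72 and gpx8.L at 1.28. Under spike-in scaling ubald2.S turned to 0.05 and ubald2.L and plpp1.L did not pass, and prpsap1.L, prpsap1.S and gpx8.L passed in 8, 5 and 7 of 16 alternatives. Gpx8.S, next to mcidas.S on its other side, was at background on all 8 arrays and was not tested.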
